A study of Phyllostachys edulis with 12 samples.

Results

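The comparison is between moso bamboo (Phyllostachys edulis) seedlings kept at -2 °C for 24 h and seedlings kept at -2 °C for 0.5 h, measured by RNA sequencing. It rests on 5 of the 11 libraries with a usable count column: 2 libraries at 24 h (replicates 1 and 2) and 3 libraries at 0.5 h, taken by their labels. The remaining libraries, 3 at 1 h of the same cold and 3 from untreated controls, entered the same statistical fit and are used to place each change in time. All seedlings were 3 weeks old, grown in a greenhouse, and the cold was given in a freezing chamber at the 3-leaf stage under the controls' light and day length. No cultivar, transgene or other agent is named, and the labels do not say whether a replicate is a plant or a pool. The p-values therefore cover only how these samples scatter, and that scatter may be technical.

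In plants, chilling is sensed within minutes through membranes and calcium, and a first wave of transcription factors, best known from the CBF/DREB1 genes of Arabidopsis, is followed over hours to days by the genes they control. Those later genes include dehydrins and other protective proteins, enzymes that make compatible sugars, and enzymes that change membrane lipids, while genes of growth are commonly lowered. Setting 1 day against the first minutes of cold therefore sets the late state of a seedling against its early state, with both arms already in the cold. The count table gives identifiers and no gene names, so the genes below cannot be assigned to these groups, no pathway was counted, and the labelled tissue could not be checked against marker genes.

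The libraries were of similar depth, with 29953291 and 32510246 counts at 24 h and 29304206 to 33873890 at 0.5 h. Across genes, log2 CPM (counts relative to each library's total, with TMM factors that correct for RNA composition) correlated at 0.927 to 0.929 between a 24 h and a 0.5 h library, at 0.946 between the 24 h libraries and at 0.948 to 0.952 among the 0.5 h libraries. Replicates differed by more than counting noise, with a chi-square per degree of freedom of 30.1 at 24 h and of at least 22.9 at 0.5 h. At least 1 count was found for 40595 and 41002 genes at 24 h and for 41033, 41280 and 41057 genes at 0.5 h. The 24 h libraries lay below all 0.5 h libraries (exact two-sided permutation test, p = 0.1, the smallest that 10 splits of 5 libraries allow).

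After 24 h, 746 genes were higher and 1261 genes were lower than after 0.5 h. These are 5.06% of the 39640 genes tested (1.88% higher and 3.18% lower), called by edgeR's quasi-likelihood test at an adjusted p under 0.05. The median higher gene stood at 26.3 CPM at 24 h against 9.95 CPM at 0.5 h, and the median of their log2 fold changes was 1.30. The median lower gene stood at 3.76 CPM at 24 h against 8.58 CPM at 0.5 h, where the median of the log2 fold changes was -1.22. For all genes tested that median was -0.0077. As a share of all counts, the higher genes together took 3.91% ± 0.122 at 24 h (SD, n = 2) against 1.80% ± 0.0836 at 0.5 h (SD, n = 3). The lower genes took 0.967% ± 0.002 at 24 h (SD, n = 2) against 2.08% ± 0.0395 at 0.5 h (SD, n = 3). These libraries chose both sets, so the medians and shares are descriptions and no test.

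**Figure D1:**
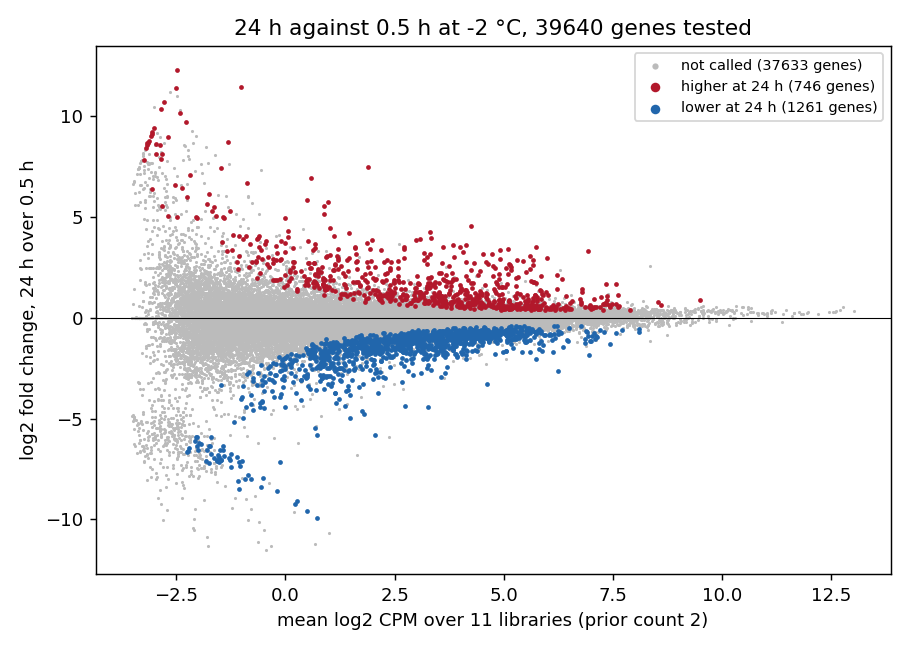
Each point is a gene, with its mean log2 CPM over 11 libraries on the horizontal axis and its log2 fold change, 24 h over 0.5 h, on the vertical axis; the 746 genes called higher are red and the 1261 called lower are blue. The called genes fan out on both sides of 0, and the points past about 5 on either side at the far left are genes with few or no counts in one of the groups, whose fitted fold depends on the prior count.

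The number of calls depended on single libraries. It was 816 without 24 h replicate 1 and 771 without 24 h replicate 2, under the assumption that the lone 24 h library varies as the other groups do. It was 1116, 1119 and 1356 without 0.5 h replicates 1, 2 and 3, and 1277 in a fit of only the 24 h and 0.5 h libraries. DESeq2 called 3649 genes, 1486 higher and 2163 lower. Scaling moved the split between higher and lower. With no TMM factors, 549 genes were higher and 1991 lower, so that 21.6% of the calls were higher against 37.2% with TMM, and the log2 fold changes of all genes then had a median of -0.139. A core of 443 genes, 209 higher and 234 lower, was called in the same direction with all libraries and in each of the 11 fits that left out a library.

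**Figure D2:**
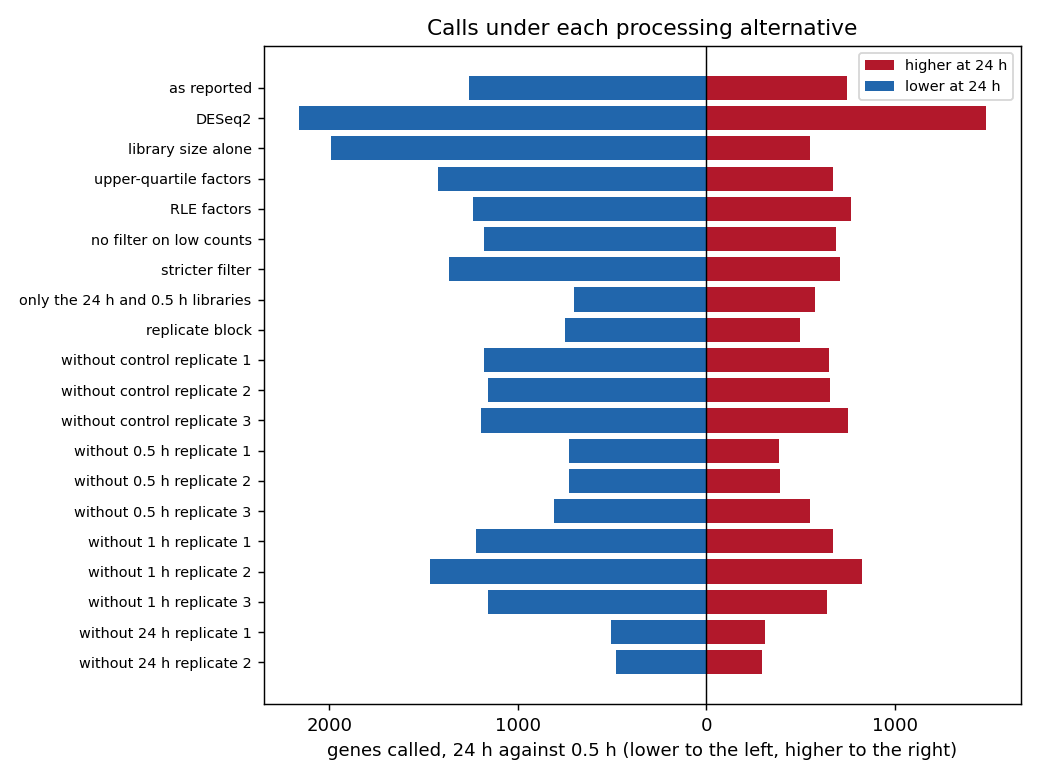
Bars give the number of genes called between 24 h and 0.5 h under each processing choice, with genes lower at 24 h to the left of 0 and genes higher at 24 h to the right. The shortest bars are those without a 24 h library (816 and 771 calls), and the longest pair is that of DESeq2 (2163 lower and 1486 higher).

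Called genes were open to naming where the mean log2 CPM over all libraries reached 3 and there was no overlap between the 24 h and 0.5 h libraries. The largest rise among them was that of PH01002175G0120. It had 299 and 287 CPM (7990 and 8596 counts) in the 24 h libraries, against 9.98, 11.5 and 15.4 CPM (297, 381 and 490 counts) in the 0.5 h libraries. The groups lie far apart, and the pair of 24 h values differ little. It rose by 4.58 ± 0.21 (SE) on the log2 scale, with an adjusted p of 3e-06 by edgeR. At 1 h it averaged 12.4 ± 2.66 CPM (SD, n = 3), close to the 12.3 ± 2.79 CPM at 0.5 h (SD, n = 3), and in the controls it averaged 7.41 ± 0.623 CPM (SD, n = 3).

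Among the genes open to naming, PH01000439G0610 had the next largest rise. It had 137 and 142 CPM at 24 h, against 6.62, 4.18 and 11.1 CPM at 0.5 h. The 0.5 h libraries differ more among themselves than the 24 h libraries do, and none of them comes near the 24 h level. The rise was 4.26 ± 0.46 (SE) on the log2 scale, with an adjusted p of 0.00051 by edgeR. The 1 h libraries, at 8.67, 4.98 and 12 CPM, overlapped those at 0.5 h, and the controls stood at 3.89, 1.69 and 4.40 CPM.

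The largest fall among the genes open to naming was that of PH01000320G0510. It had 0.674 and 0.934 CPM (18 and 28 counts) at 24 h, against 16.8, 17.7 and 18.4 CPM (500, 590 and 585 counts) at 0.5 h. It fell by 4.44 ± 0.27 (SE) on the log2 scale, with an adjusted p of 2.2e-05 by edgeR. The 24 h libraries are low in both replicates, and the 0.5 h libraries are alike. At 1 h the gene averaged 13.7 ± 2.69 CPM (SD, n = 3). The log2 difference of 1 h from 0.5 h was -0.36 ± 0.18 (SE), with an adjusted p of 0.74 by edgeR.

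PH01003515G0030, next among the falls open to naming, fell to 2.99 and 4.74 CPM at 24 h, against 34.8, 41.8 and 37.4 CPM at 0.5 h. The log2 difference was -3.29 ± 0.27 (SE), with an adjusted p of 8.9e-05 by edgeR. Its mean was highest in the controls (50.4 ± 8.77 CPM), then 38.0 ± 3.54 CPM at 0.5 h and 28.0 ± 5.98 CPM at 1 h (SD, n = 3 each). The steps before 24 h did not pass the test, with edgeR adjusted p = 1 for 0.5 h against the control and edgeR adjusted p = 0.72 for 1 h against 0.5 h.

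**Figure D3:**
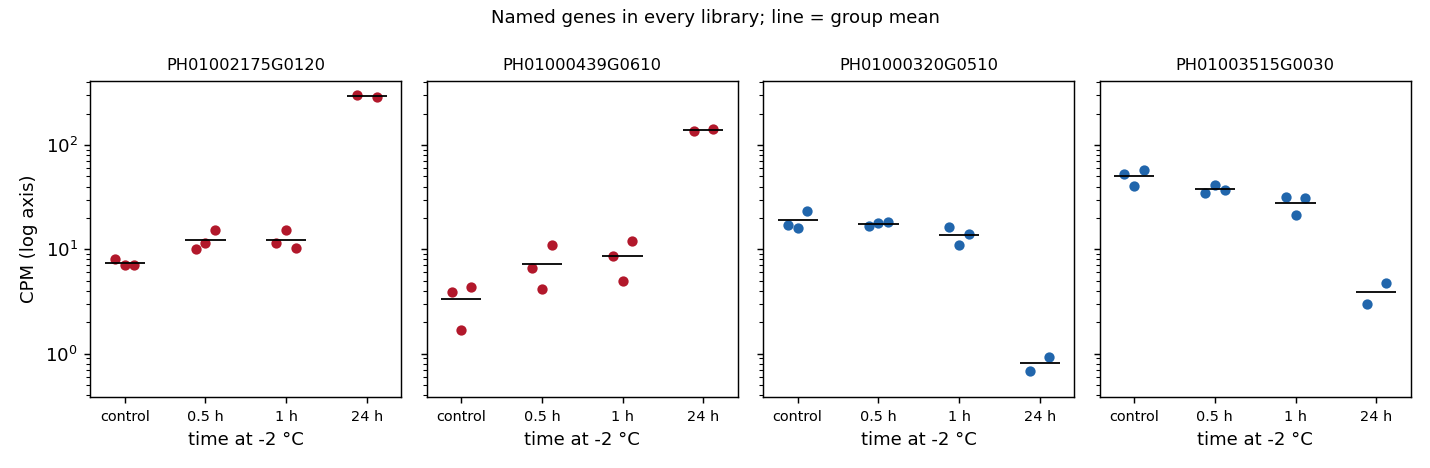
Points are CPM per library on a log axis in the controls and after 0.5 h, 1 h and 24 h at -2 °C, and the line is the group mean. The genes are those with the 2 largest rises (red) and the 2 largest falls (blue) among called genes open to naming. In each panel the 24 h libraries stand apart from all others, as for PH01002175G0120 with 299 and 287 CPM at 24 h against 9.98 to 15.4 CPM at 0.5 h.

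The 10 genes next in rank among the rises had log2 fold changes of 3.38 to 3.98 (edgeR adjusted p = 2.9e-06 to 0.047), with means of 46.2 to 528 CPM at 24 h against 4.04 to 45.5 CPM at 0.5 h. The 10 next falls had log2 fold changes of -2.94 to -2.05 (edgeR adjusted p = 8.5e-06 to 0.0023), with means of 1.71 to 17.7 CPM at 24 h against 11.6 to 111 CPM at 0.5 h. The most abundant of these rises had 557 and 500 CPM at 24 h, against 42.3, 32.3 and 61.9 CPM at 0.5 h. The most abundant of these falls had 19.6 and 15.9 CPM at 24 h, against 101, 101 and 130 CPM at 0.5 h. Groups that do not overlap were a condition for this ranking, so their separation is no result. The 0.5 h libraries of the rise are the more widely spread relative to their mean.

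In a few called genes the 24 h libraries disagreed. The ninth rise in rank had 82.6 and 9.81 CPM at 24 h, against 1.92, 2.23 and 7.97 CPM at 0.5 h, and its controls were at 96.4, 115 and 60.0 CPM. It was thus high in the controls and in a single 24 h library, and its edgeR adjusted p was 0.047 with all libraries and 0.52 without 24 h replicate 1. That call was also lost without any single control, without 0.5 h replicate 1 or 2, without 1 h replicate 3, in the fit of only the 24 h and 0.5 h libraries and with a replicate block, with adjusted p-values of 0.059 to 0.14. A gene with too low a mean over all libraries to be open to naming, singled out after its values were seen, had 3 and 32821 counts at 24 h, against 1, 4 and 13 counts at 0.5 h. The estimated log2 difference was 11.47 with all libraries (edgeR adjusted p = 0.015) and -0.72 without 24 h replicate 2 (edgeR adjusted p = 0.88). The call was also lost without 0.5 h replicate 1, 2 or 3 (edgeR adjusted p = 0.066, 0.066 and 0.052) and in the fit of only the 24 h and 0.5 h libraries (edgeR adjusted p = 0.087). Of the 746 higher genes, 9 had 24 h libraries more than 4-fold apart (after adding 0.5 CPM), and of the 1261 lower genes 0 had. The 24 h libraries did not overlap the 0.5 h libraries for 743 of the higher and all 1261 lower genes. Among all genes tested 19.7% lay wholly above and 20.6% wholly below, 40.3% in all. The same libraries made the calls, so this is a description and no separate support.

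A rise that the limit on the mean level also kept from naming, and that was likewise chosen after its values were seen, held in both 24 h libraries. That gene had 450 and 387 CPM (12026 and 11598 counts) at 24 h, against 1.48, 2.29 and 3.17 CPM (44, 76 and 101 counts) at 0.5 h. It rose by 7.49 ± 0.6 (SE) on the log2 scale, with an adjusted p of 7.8e-05 by edgeR. The level at 1 h, 2.87 ± 0.784 CPM (SD, n = 3), was close to that at 0.5 h. In the controls the gene averaged 0.499 ± 0.673 CPM (SD, n = 3), below its 0.5 h mean of 2.31 CPM. That difference did not pass the test (edgeR adjusted p = 0.64). Of the 746 genes called higher, 37 had a mean log2 CPM under 3 over all libraries and a mean of at least 20 CPM at 24 h. The limit at 24 h uses the libraries under test, and uncalled genes at these levels were not counted. The 37 are therefore a description.

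A test against a change of 2-fold, in place of 0, is stricter. By edgeR's glmTreat, 133 genes (0.336%) rose and 130 (0.328%) fell by more than 2-fold, in all 0.663% of the genes tested. The rises among them had a median of 45.6 CPM at 24 h against 5.99 CPM at 0.5 h, and the falls 0.619 CPM at 24 h against 4.63 CPM at 0.5 h. The even split of these genes contrasts with the excess of falls among all calls, although the difference between the splits was not tested. The even split was not stable to processing. With no TMM factors 121 rose and 168 fell, and by DESeq2 156 rose and 120 fell. With upper-quartile factors 130 rose and 133 fell, and with RLE factors 134 rose and 126 fell. The counts were 161 without 24 h replicate 1 and 161 without 24 h replicate 2, and 165 in a fit of only the 24 h and 0.5 h libraries, where 113 rose and 52 fell. With all libraries and in each of the 11 fits that left out a library, 95 of these genes passed, 67 higher and 28 lower.

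By size of the estimate, there were 467 rises and 847 falls of 2-fold or more among the calls, and 232 rises and 266 falls of 4-fold or more. At 16-fold or more there were 60 rises and 36 falls. Genes without a count in a whole group enter these numbers at the smallest fold that 3 counts over the group allow. Of 204 tested genes with no count at 0.5 h, 24 were called higher, by at least 7.58-fold to at least 620-fold. Of 477 tested genes with no count at 24 h, 52 were called lower, by at least 4.33-fold to at least 70.5-fold. Over all genes tested 5.06% were called. The absence of counts lies in the libraries under test, so these numbers are a description. Among the 24, 14 had no count in any control and 15 had none at 1 h. All of these limits cover counting error only. The 52 silent at 24 h were thinly counted before (median 0.516 CPM at 0.5 h), and each had counts in all 3 controls.

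Few genes stood near silence at one of the times and at a clear level at the other. Both 24 h libraries reached 5 CPM while every 0.5 h library stayed under 1 CPM in 14 genes, and 13 of them were called higher. Their median was 10.3 CPM at 24 h against 0.469 CPM at 0.5 h. Of the 14, 11 were also below 1 CPM in every 1 h library, and 11 were below 1 CPM in every control. The reverse pattern held for 10 genes, of which 8 were called lower. Their median was 0.583 CPM at 24 h against 8.45 CPM at 0.5 h. Over all genes tested 5.06% were called. Both patterns were defined on the libraries under test, so the numbers called among them are a description and no support.

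At 1 h the called genes still stood near their 0.5 h level. On the log2 scale, with the 0.5 h mean as 0% and the 24 h mean as 100%, the 1 h mean lay at a median of -4.49% for 722 higher genes (quartiles -17.3% and 10.7%). For 1209 lower genes it lay at 2.86% (quartiles -8.38% and 14.7%). Genes without a count in a whole group are left out here. The 1 h mean was nearer to 24 h than to 0.5 h for 29 of the higher genes (4.02%) and 23 of the lower genes (1.90%). Both the 1 h and the 24 h change are taken from the 0.5 h mean, so noise in the 0.5 h libraries alone moves this measure, and it is given as a description.

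**Figure D4:**
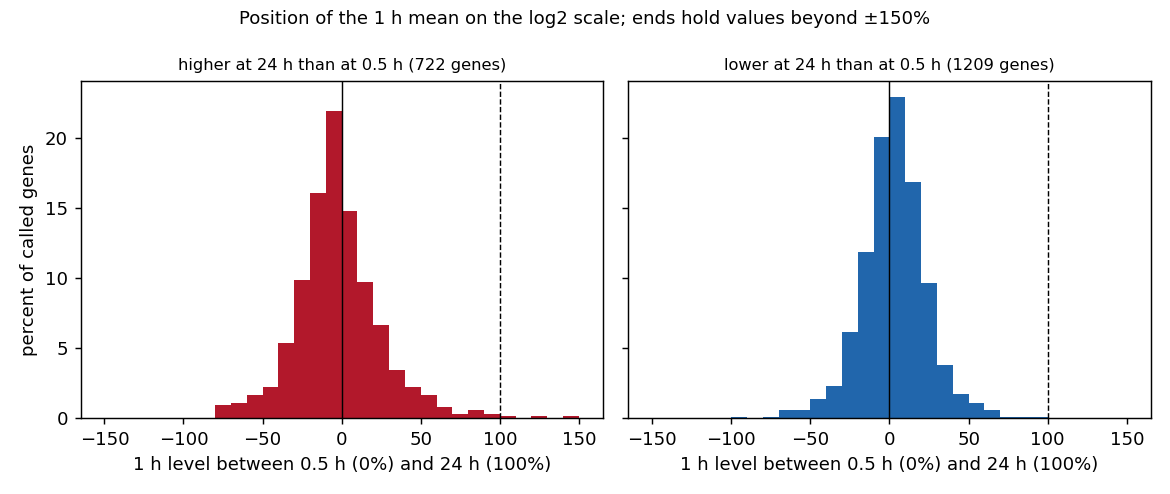
Histograms show, for 722 genes called higher (left) and 1209 called lower (right) at 24 h than at 0.5 h, where the 1 h mean lay between the 0.5 h mean (0%, solid line) and the 24 h mean (100%, dashed line), as the percent of called genes in bins of 10 percentage points. Both histograms centre near 0, with medians of -4.49% and 2.86%, and few genes lie past the middle.

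In the median over all called genes, the untreated controls stood near the 0.5 h libraries. On the same scale their median was -8.03% for the higher genes, on the side of 0.5 h away from 24 h, and -2.19% for the lower genes. The rises past 2-fold departed from this in the median. These 133 genes had a median of 5.99 CPM at 0.5 h against 3.38 CPM in the controls. As a single case, the seventh rise in rank had 22.3 ± 15.5 CPM at 0.5 h against 3.04 ± 1.53 CPM in the controls (SD, n = 3 each). In median CPM the higher genes were at 8.60 in the controls, 9.95 at 0.5 h, 10.6 at 1 h and 26.3 at 24 h. The lower genes were at 8.65, 8.58, 8.37 and 3.76 at the same stages. Called counts from the same fit, which shares its libraries between contrasts, were 2007 for 24 h against 0.5 h, 3851 for 24 h against 1 h (9.71%) and 3008 for 24 h against the control (7.59%). Whether these counts differ from each other was not tested.

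Within the 0.5 h group, replicate 3 was often the library nearest to 24 h among the risen genes. It was the highest of the 0.5 h libraries in 371 of the 746 higher genes (49.7%), against 173 and 178 genes for replicates 1 and 2. Over all genes tested it was the highest in 35.6%. Among the 1261 lower genes, it was the lowest in 411 (32.6%), against 436 and 414 for replicates 1 and 2. Without replicate 3, 550 genes were called higher and 806 lower. What sets this library apart was not tested.

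The genes called by 0.5 h are few, and their values are given as a description. Of the genes tested, 4 (0.0101%) were called between 0.5 h and the controls by edgeR. Between 24 h and 0.5 h, 0 of these 4 were called by edgeR or DESeq2, a number too small to read against the 5.06% of all genes that edgeR called, 2 had an unadjusted edgeR p under 0.05, and glmTreat gave each an adjusted p of 1. The gene with the largest early rise had 40.4 and 42.8 CPM at 24 h, against 16.1, 19.8 and 35 CPM at 0.5 h. The log2 difference was 0.82 (approximate 95% interval 0.13 to 1.5, edgeR adjusted p = 0.17). The other early rises had log2 fold changes of 0.24 (-0.18 to 0.67, edgeR adjusted p = 0.53) and 0.34 (0.02 to 0.65, edgeR adjusted p = 0.21). The early fall, with 4 and 6 counts at 24 h against 5, 4 and 3 counts at 0.5 h, had a log2 fold change of 0.46 (-0.51 to 1.42, edgeR adjusted p = 0.71). A p that misses the threshold does not show equal levels, and these intervals still allow changes of over 2-fold in the first and last gene. The early fall was not seen at 1 h, where that gene had 109, 150 and 95 counts against 121, 99 and 76 in the controls. For 1 h against 0.5 h its log2 fold change was 4.7 (edgeR adjusted p = 0.0019). The early rises were still above their control means at 1 h.

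The direction of the calls varied with abundance. At a mean log2 CPM from 1 to 3, 148 genes (1.64%) were higher and 447 (4.94%) lower. From 3 to 5, 265 (2.33%) were higher and 447 (3.93%) lower. From 5 to 7 the numbers were 147 (2.55%) and 128 (2.22%), and above 7 they were 29 (2.91%) and 13 (1.31%). The excess of rises above 5 was not stable to scaling. With no TMM factors 83 were higher and 258 lower from 5 to 7 and 13 higher and 25 lower above 7, and with upper-quartile factors 121 were higher and 158 lower from 5 to 7. The excess of falls below 5 held under each scaling tried. The median SE of the log2 fold change was 0.733 up to a mean log2 CPM of 1 and 0.142 from 5 to 7, so that smaller changes could be called among abundant genes.

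**Figure D5:**
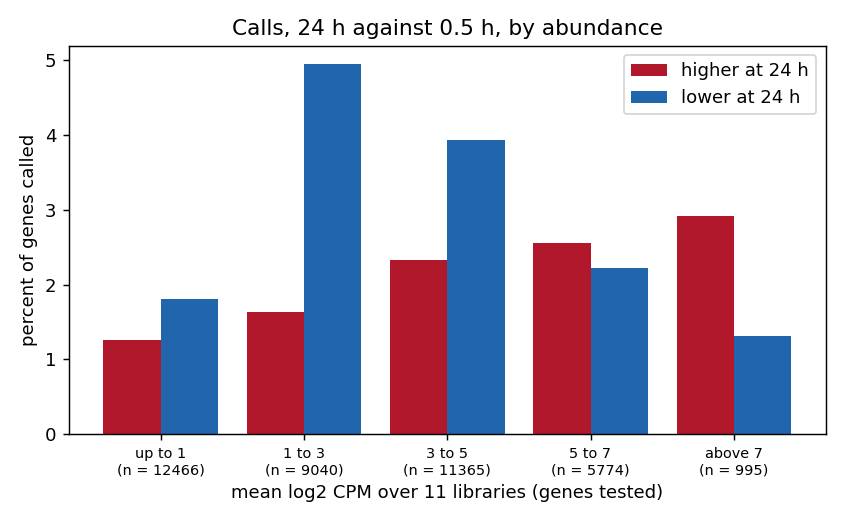
Bars give the percent of genes called higher (red) and lower (blue) at 24 h than at 0.5 h in 5 classes of mean log2 CPM over 11 libraries, with the genes tested in each class below. The highest bar is that of falls from 1 to 3 (4.94%); the bars of rises run from 1.26% to 2.91%, an increase that was not seen without TMM factors (1.21% in the lowest and 1.31% in the highest class).

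Genes were also cut by deposited length into 4 classes of nearly equal size, whose shares are given as a description without a test between classes. Up to 1630 bases, 179 (1.81%) were higher and 297 (3.00%) lower. From 1631 to 3653 bases, 172 (1.74%) were higher and 422 (4.26%) lower, and from 3654 to 8476 bases, 194 (1.96%) and 332 (3.35%). From 8481 bases, 201 (2.03%) were higher and 210 (2.12%) lower, and with no TMM factors this even split was gone, with 125 (1.26%) higher and 419 (4.23%) lower, against 4.33% lower in the shortest class. CPM, which is not corrected for length, differed between the classes too, with a median log2 CPM of 4.11 from 8481 bases and 1.49 from 1631 bases, and its part in these shares was not tested. Entries listed as newGene were called in 3.79% of 12352 cases, 164 higher and 304 lower, and genes with a PH01 identifier in 5.64% of 27288 cases, 582 higher and 957 lower. Up to a mean log2 CPM of 1 the shares called were 2.20% of newGene entries and 3.89% of the others, and from 3 to 5 they were 5.92% and 6.35%.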

How the data were processed

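Whole-number counts per gene were deposited by the authors in 1 table with a gene length. HISAT2 is named in the submitters' processing notes. No version, genome build, annotation, strand setting or counting tool is given in the sources used here, so near-identical or overlapping genes are uncertain. Libraries were prepared with an RNeasy kit and a NEBNext Ultra kit, per the labels' protocols. Each count column was tied to the sample whose description holds its code. This left 1 count column with no matching label unused, and the sample labelled 24 h replicate 3 without a column. Should the table follow another numbering than the labels, the 24 h group and its replicate numbers would change.

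Genes were kept by filterByExpr (39640 of 47091), scaled with TMM factors and fitted with edgeR 4.0.16 (limma 3.58.1, R 4.3.3), with 11 libraries in 4 groups, 7 residual and 3.86 prior degrees of freedom. The quasi-likelihood F-test was used for each contrast and glmTreat for changes past 2-fold, with Benjamini-Hochberg adjustment over all genes and a threshold of 0.05. The SE was taken as the size of the log2 change over the root of its F statistic, and intervals use it with the t quantile. DESeq2 1.42.0 was an alternative. Total counts lay between 29304206 and 34543663 per library. The scripts were tested on simulated data.

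Named genes are the 2 largest rises and the 2 largest falls among called genes with groups that do not overlap and a mean log2 CPM (prior count 2) of 3 or more; this left 441 rises and 588 falls. The libraries compared, the rules and the lists were chosen with earlier results of these data known. Planned gene lists could not be used, since identifiers are not paired with names. Harvest hour and batch are not in the labels, and where they run with the groups they cannot be told apart from time in the cold. The tests had been planned with 3 libraries at 24 h and were run with 2.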

Additional observations from a re-analysis of the deposited data

Results flagged for a closer look

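The contrast of 24 h with 0.5 h is also a test of whether the change from the control differs between these times, since the control cancels. By edgeR's test that difference passed for 2007 genes. Among the named genes its log2 value was 4.58 for PH01002175G0120, 4.26 for PH01000439G0610, -4.44 for PH01000320G0510 and -3.29 for PH01003515G0030. The rule for naming genes required that the 24 h and 0.5 h libraries not overlap, so their agreement in sign across libraries was fixed by the choice. With 2 and 3 libraries a group, no single library was tested as standing apart.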

How the results depend on the processing

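The named genes kept their direction and passed edgeR's or DESeq2's threshold in all 19 alternatives, with edgeR's highest adjusted p = 0.0047. The counts moved by over 1.5 times as follows. DESeq2 called 3649 genes, 1486 higher and 2163 lower. Library size alone gave 1991 lower. The fit of only the 24 h and 0.5 h libraries gave 1277 calls, 701 of them lower, and 165 past 2-fold. Leaving out 1 library gave 771 to 2294 calls, 294 to 827 higher, 477 to 1467 lower and 161 to 256 past 2-fold. The lowest were without a 24 h library, and the highest count of calls was without 1 h replicate 2. The main calls kept in the same direction were 685 without 24 h replicate 1 and 641 without 24 h replicate 2. For the gene with 3 and 32821 counts at 24 h, the log2 difference ran from -0.72 without 24 h replicate 2 to 12.69 without 0.5 h replicate 3 (edgeR adjusted p = 0.88 and 0.052). The cause of each shift was not tested. Some of these fits, but not all, also held fewer libraries. The other scalings and filters gave 1870 to 2099 calls.

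In the median, samples with the same replicate number did not deviate together more than others. The correlation of their deviations from the group means was -0.157 and -0.0385 between 24 h and 0.5 h. Over 15 same-numbered pairs it had a median of -0.105 (-0.21 to 0.171), against 0.0329 (-0.244 to 0.304) over 30 others. With 2 libraries at 24 h the deviations are equal and opposite, so these correlations are not independent, and the medians were not tested against each other. With the replicate block, edgeR called 1244 genes, 497 higher and 747 lower, and 182 past 2-fold; this block is not part of the design.

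The 10 most abundant genes took 0.934 percentage points more of the counts at 24 h than at 0.5 h (exact permutation p = 0.2), and 1.5 points more per kb of length. For newGene entries the difference was -0.0357 points (exact permutation p = 0.9), and -0.428 per kb. Depth limits the thinly counted genes: below a mean log2 CPM of 1 the median SE was 0.733.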

Other observations

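The share of the most abundant transcripts that passed the test was near that of all genes. Of the 100 genes with the highest mean CPM per base of length, edgeR called 3 higher and 0 lower at 24 h than at 0.5 h, against 5.06% called over all genes tested. At an unadjusted p under 0.05, 25 were higher and 1 lower, against 20.2% of all genes in either direction. DESeq2 called 11, all higher, against 9.21% called over all genes tested. Their log2 fold changes ran from -0.42 to 0.87, with a median of 0.267 against -0.008 for all genes tested. With library size alone the median was 0.136 against -0.139 for all genes, and 8 were higher and 2 lower at an unadjusted p under 0.05.

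The leading genes of the 24 h and 0.5 h libraries overlapped less than those of replicates within either group. Of the 500 genes highest per kb of length in a library, a 24 h and a 0.5 h library shared 422 to 438, against 456 between the 24 h libraries and 448 to 464 among the 0.5 h libraries. The controls shared 447 to 454 among themselves. The 1 h libraries shared 421 to 465 among themselves, and a 0.5 h and a 1 h library shared 412 to 464. The overlap of 24 h with 0.5 h thus lay below that of replicates at 24 h, at 0.5 h and in the controls. It lay within the range of the 1 h replicates, and the difference was not tested.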
